A study of Mus musculus with 6 samples.

Results

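The genes described here encode the enzymes, carriers and regulators of fatty acid oxidation in mitochondria and peroxisomes, with target genes of the nuclear receptor PPARα. They are 43 genes named in a fixed list and found by symbol in a kidney count table of 34714 genes, and all 43 were found. Of these, 42 had enough reads to be tested. Expression was measured by RNA sequencing in 6 mouse kidneys after unilateral ureteral obstruction (1 ureter is tied, and the kidney scars). In the knockout group (KO, n = 3) the mice lacked the microRNA gene Mir92b in all tissues (miR-92b-/-, allele C57BL/6JGpt- Mir-92bem22Cd549/Gpt), and the wild-type group (WT, n = 3) was C57BL/6J per the protocol. Mice of both groups were male, 8 weeks old and operated, and ligated kidneys were taken 10 days later. The deletion is in every cell of the body, and kidney RNA was sequenced in bulk, so cell types are not separated. The purchased knockout line and the wild type carry different substrain names. Whether each library is a separate animal is not said, so p-values measure the spread between these libraries, which may be technical. The protocol calls the ligated kidneys controls without fibrosis, whereas the treatment label gives the operation for all 6. Sham kidneys were not analysed here, so no value below is an effect of obstruction.

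Fatty acids enter the cell through carriers such as CD36, are activated to acyl-CoA, and cross into mitochondria bound to carnitine, where each turn of β-oxidation shortens the chain and passes electrons to the respiratory chain. Peroxisomes shorten very long and branched chains first. In the kidney the proximal tubule burns fatty acids as its main fuel, and PPARα with its coactivator PGC-1α drives many of these genes there. The question is whether these genes differ in ligated kidneys that lack the microRNA.

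The deleted microRNA recognises its targets through its seed, bases 2 to 8 of the mature strand. The mature sequences of the family are shown because relatives encoded at other loci share this seed (RefSeq, GRCm38.p6; 5′ to 3′, seed in capitals).
miR-92b-3p (chr3:89227126-89227147, minus strand): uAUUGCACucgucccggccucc
miR-92a-3p (chr14:115044476-115044496, plus strand): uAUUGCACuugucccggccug
miR-25-3p (chr5:138165332-138165353, minus strand): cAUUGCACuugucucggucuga
miR-32-5p (chr4:56895272-56895293, minus strand): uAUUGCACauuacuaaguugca
miR-363-3p (chrX:52741697-52741718, minus strand): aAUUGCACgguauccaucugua
The deletion could not be checked, since counts for Mir92b were not analysed here.

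Seed matches in the metabolic genes were counted next. The longest annotated 3′ UTR (GENCODE M21, GRCm38) of 8 of the 42 tested genes held a match of 7 bases, GTGCAAT or TGCAATA read on the transcript strand, and 0 held the 8-base match GTGCAATA. Among all 15395 tested genes with an annotated 3′ UTR, 13.9% held at least 1 of these matches. Sites of 4 genes are shown, with 10 bases on each side and the match in capitals. Abcd3 held the 1 match that pairs with all of bases 2 to 8, Etfb was the member lower in the knockout with the smallest p, Cyp4a10 was among the most variable members, and Ppargc1a is a regulator of the pathway.
Abcd3 (chr3:121781928-121781954, minus strand): aagttaacaaGTGCAATtggagctcag
Etfb (chr7:43457748-43457774, plus strand): cctgatactcTGCAATAaaactgtgcc
Cyp4a10 (chr4:115533612-115533638, plus strand): ccctcctttcTGCAATAaagttcccag
Ppargc1a (chr5:51456681-51456707, minus strand): taaccacttcTGCAATAtttttccaca
In Etfb, Cyp4a10 and Acox3 the match overlapped the letters AATAAA of a polyadenylation signal. The log2 fold changes (KO over WT) of the 8 genes ran from -0.58 for Etfb to 0.27 for Cyp4a14, with a median of 0.03. The median of the tested members without a match was 0.04. Over all 15395 tested genes with an annotated 3′ UTR, the medians were 0.08 with a match and 0.003 without. The cause of that difference was not tested.

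Fatty acid oxidation and peroxisome genes were expressed in both genotypes, and the differences between KO and WT were smaller than the spread between libraries for nearly all of them. With edgeR's quasi-likelihood test, 0 of 42 passed an adjusted p of 0.05, as did 0% of all 18927 genes tested. At an unadjusted p under 0.05, 1 member was higher (Angptl4) and 1 was lower (Etfb), where 4.38% of all tested genes were higher and 3.52% were lower. The median log2 fold change of the members was 0.03, beside -0.02 over all tested genes. Of the 42, 18 had a fold change below 0, against 52.3% of all tested genes. The CPM (read counts scaled to library size by TMM) of the groups overlapped for 41 of the 42 members, whereas 16.1% of all tested genes had groups that did not overlap.

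The spread inside each genotype was wide and ran in the same order for most members. The highest library was WT replicate 3 for 32 members (76.2%, against 23.5% of all tested genes). It was KO replicate 1 for 9 others and KO replicate 3 for Plin2. The lowest library was WT replicate 1 for 29 members, KO replicate 3 for 12 and WT replicate 2 for Angptl4. Among the KO libraries, replicate 1 was highest for 40 members and replicate 3 lowest for 37 (34.2% and 38.3% of all tested genes). Within WT, replicate 3 was highest for 41 members and replicate 1 lowest for 36 (37.2% and 38.8% of all tested genes). The highest library exceeded the lowest by a median of 2.36-fold, from 1.30-fold for Acaa1a to 90.6-fold for Cyp4a14. For 41 members the range within WT was wider than the fold between the group means, and for 38 the range within KO was. These comparisons were not counted over all tested genes, so they are not shown to be particular to the members.

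**Figure D1:**
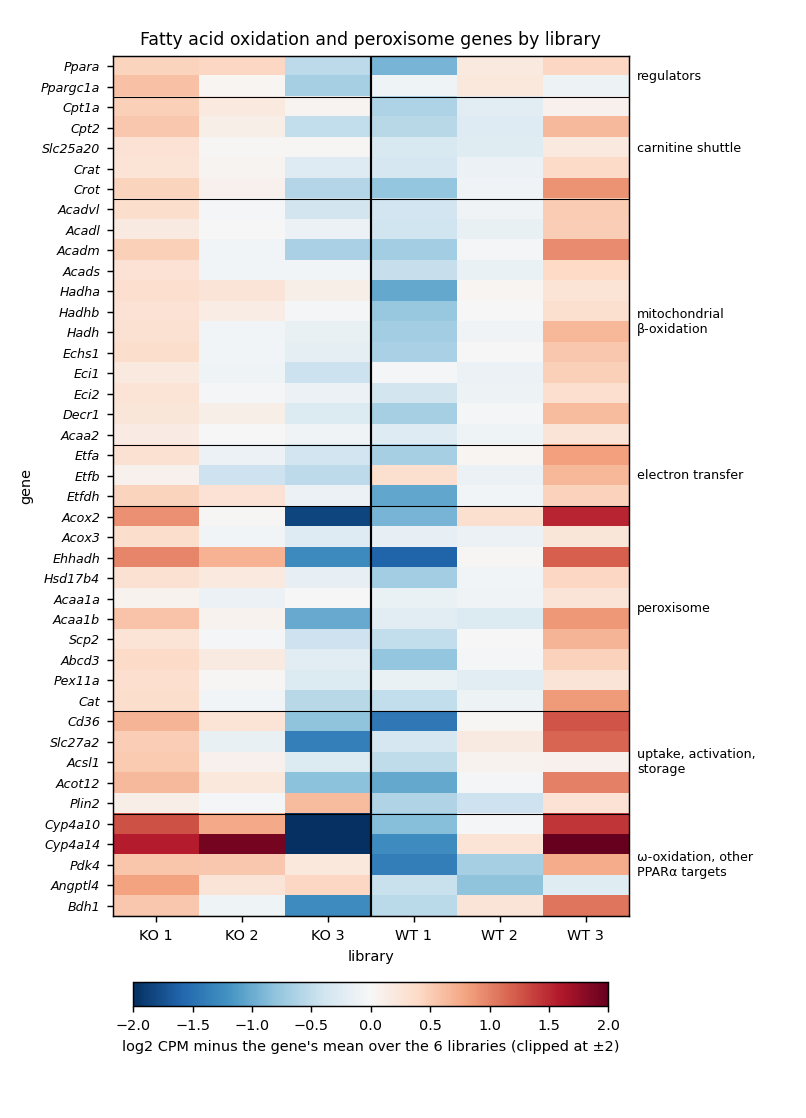
Each row is a tested gene and each column a library, with knockout (KO) left and wild type (WT) right. Colour gives log2 CPM minus the gene's mean over the 6 libraries, clipped at 2 either way, and WT 3 is the highest column for 32 of the 42 genes while WT 1 or KO 3 is the lowest for 41.

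Markers of the tubule and of scar tissue also varied between libraries. The 43 genes took 0.799%, 0.626% and 0.450% of all counts in KO replicates 1 to 3, against 0.467%, 0.609% and 0.906% in WT replicates 1 to 3. The 15 proximal tubule markers, all detected in every library, summed to 2491 to 8261 CPM in KO and 5256 to 16564 CPM in WT. Without Kap, an androgen-driven gene that made up most of that sum, the other 14 summed to 3423, 2246 and 1008 CPM in KO, against 1972, 2037 and 4245 CPM in WT. WT replicate 3 was the highest library in proximal tubule markers too, with KO replicate 1 second. At the low end the order differed, since KO replicate 3 was lowest in proximal tubule markers and WT replicate 1 was lowest for most of the metabolic genes. The 6 injured tubule markers, mostly Spp1 by CPM, summed to 27181, 22018 and 23325 CPM in KO and 18878, 22704 and 31922 CPM in WT. Their lowest library was thus WT replicate 1, as for most of the metabolic genes, although Lcn2 was highest there. The 8 fibroblast and myofibroblast markers ran opposite to the proximal tubule markers, at 2488, 4737 and 7294 CPM in KO and 4050, 2571 and 1848 CPM in WT. The 6 markers of thick ascending limb and distal tubule summed to 881 to 4836 CPM in KO and 1715 to 4828 CPM in WT, with Pvalb at 0 in KO replicates 2 and 3. The 8 collecting duct markers summed to 149 to 286 CPM in KO and 252 to 343 CPM in WT. In both lists 0 markers had a fold change above 0. Of the 15 proximal tubule markers, 14 were below 0 (median log2 fold change -0.35), and the 8 fibroblast and myofibroblast markers were all above 0. The collecting duct genes Aqp2 (0.417-fold) and Fxyd4 (0.589-fold) were at lower values in KO without overlap. So was Pvalb, but near the floor, with 64 counts in all libraries together. It had 0.0456, 0 and 0 CPM in KO and 0.518, 0.587 and 0.234 CPM in WT. Slc12a3 (0.980-fold) and Calb1 (0.971-fold) of the same list overlapped between the groups. Groups did not overlap for 16.1% of all tested genes. The 5 podocyte markers summed to 420 to 539 CPM in KO and 411 to 495 CPM in WT, with Nphs1 at 0.624-fold without overlap. Of all these markers 0 passed the adjusted threshold. In bulk tissue, fewer cells of a type and less RNA per cell cannot be told apart, and the part of these cell types in the values below was not tested.

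**Figure D2:**
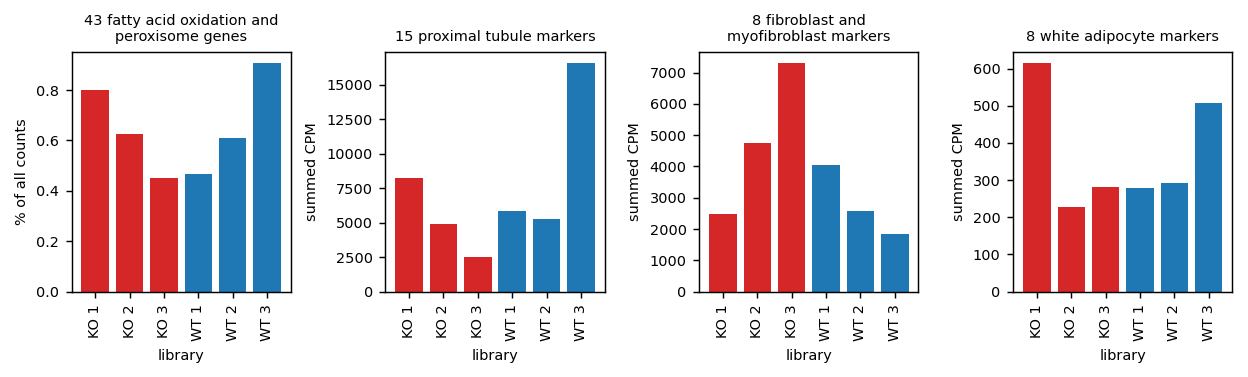
Bars give, for each library (KO left, WT right), the share of all counts in the 43 genes (percent) and the summed CPM of proximal tubule, fibroblast and white adipocyte markers. The metabolic genes and the proximal tubule markers are highest in WT 3, where the fibroblast markers are lowest at 1848 CPM.

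The 2 transcriptional regulators had overlapping levels in the genotypes. Ppara, the fatty acid receptor that switches on much of this programme, had 66.0, 64.3 and 33.6 CPM in KO and 25.4, 55.2 and 64.3 CPM in WT. The lowest value was in WT replicate 1 and the groups overlapped (log2 fold change 0.18 ± 0.37, SE; edgeR adjusted p = 0.884). Ppargc1a, which encodes the coactivator PGC-1α, had 75.8, 51.8 and 31.9 CPM in KO and 47.4, 58.4 and 47.1 CPM in WT. The KO libraries spanned the whole WT range, and the log2 fold change was 0.06 ± 0.29 (SE). Per kilobase of the longest transcript these were among the weakest members, at 15.1 CPM for Ppara and 8.05 CPM for Ppargc1a over all 6 libraries.

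In the carnitine shuttle, 4 of 5 fold changes were above 0 and 0 passed. Cpt1a, the outer membrane transferase and gatekeeper of mitochondrial entry, had 377, 312 and 282 CPM in KO and 177, 234 and 289 CPM in WT. Only WT replicate 3 reached into the KO range. Cpt1a averaged 324 ± 48.8 CPM in KO and 234 ± 56.0 CPM in WT (SD, n = 3 each), a log2 fold change of 0.47 ± 0.22 (SE; edgeR unadjusted p = 0.0627, adjusted p = 0.627). It was the member of this step with the smallest p, and its fold change was above 0 in every alternative run. Crot, which loads medium chains from peroxisomes onto carnitine, had 255, 198 and 125 CPM in KO and 110, 179 and 351 CPM in WT, a log2 fold change of -0.14 ± 0.43 (SE). Here the WT libraries enclosed all KO libraries. The inner membrane steps Slc25a20 and Cpt2 and the acetyl transferase Crat differed by 0.22, 0.07 and 0.03 on the log2 scale.

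The 12 enzymes of the mitochondrial β-oxidation spiral were split evenly, with 6 fold changes above 0, 6 below 0 and a median of 0.01. Acadm, the medium-chain acyl-CoA dehydrogenase, had 311, 216 and 143 CPM in KO and 137, 218 and 432 CPM in WT. WT held both the lowest and the highest value (log2 fold change -0.23 ± 0.44, SE; edgeR adjusted p = 0.866). Acadl, the long-chain dehydrogenase, was the strongest of these enzymes per kilobase, with 261, 229 and 211 CPM in KO and 175, 207 and 322 CPM in WT. Its group means were nearly equal, at 234 ± 25.4 CPM in KO and 235 ± 77.5 CPM in WT (SD, n = 3 each). Hadha, the α subunit of the trifunctional protein, had 194, 183 and 166 CPM in KO and 75.0, 158 and 185 CPM in WT. WT replicate 1 stood well below the other 5 libraries, and the log2 fold change of 0.38 ± 0.30 (SE) was 0.08 without it. Its partner subunit Hadhb differed by 0.22. The remaining 8, Acadvl, Acads, Hadh, Echs1, Eci1, Eci2, Decr1 and Acaa2, lay between -0.22 for Eci1 and 0.10 for Acads.

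Of the 3 genes that carry electrons from the acyl-CoA dehydrogenases to the respiratory chain, 0 passed. Etfb, the β subunit of the electron transfer flavoprotein, had 173, 123 and 113 CPM in KO and 204, 151 and 259 CPM in WT. Only WT replicate 2 lay inside the KO range. It averaged 136 ± 31.9 CPM in KO and 204 ± 54.0 CPM in WT (SD, n = 3 each), a log2 fold change of -0.58 ± 0.24 (SE; edgeR unadjusted p = 0.0434, adjusted p = 0.627). Etfb has the shortest transcript of the tested members (893 nt), and the 1164 tested genes with transcripts under 1000 nt had a median log2 fold change of -0.29. With the length trend removed its log2 fold change was -0.36. The partner subunit Etfa differed by -0.23 ± 0.36 (SE) and the dehydrogenase Etfdh, which hands the electrons to ubiquinone, by 0.31 ± 0.35 (SE), and neither passed.

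Among the 10 peroxisomal genes the fold changes were again split, 5 above and 5 below 0, and 0 passed. Cat, catalase, which breaks down the hydrogen peroxide made by peroxisomal oxidation, had 380, 286 and 203 CPM in KO and 213, 278 and 541 CPM in WT (log2 fold change -0.25 ± 0.37, SE). Ehhadh, the bifunctional enzyme and a classical PPARα target, had 259, 213 and 54.3 CPM in KO and 43.1, 133 and 299.6 CPM in WT. KO replicate 3 and WT replicate 1 were both far below the rest, and the log2 fold change was 0.15 ± 0.75 (SE; edgeR adjusted p = 0.956). Acox2, the branched-chain acyl-CoA oxidase, had 37.4, 20.2 and 5.54 CPM in KO and 10.4, 24.8 and 57.1 CPM in WT. Its highest library exceeded its lowest by 10.3-fold, and its log2 fold change of -0.55 ± 0.76 (SE) was the one with the smallest p in this step.

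The 2 peroxisomal thiolase genes differed in how far they varied. Acaa1b had 110, 78.3 and 37.3 CPM in KO and 64.1, 61.9 and 136 CPM in WT, a 3.65-fold span over the 6 libraries. Acaa1a, its neighbour on chromosome 9 (119341028 to 119350296, against 119148043 to 119157093 for Acaa1b), spanned 1.30-fold, the narrowest of all members. The log2 fold changes were -0.21 ± 0.44 and -0.05 ± 0.15 (SE). The genes are close copies, so reads may be shared between them in ways the counting method, not given in the sources used here, would decide. The transporter Abcd3, the β-oxidation enzyme Hsd17b4, the thiolase and sterol carrier Scp2, the peroxisome division factor Pex11a and the oxidase Acox3 lay between -0.17 for Scp2 and 0.16 for Hsd17b4.

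**Figure D3:**
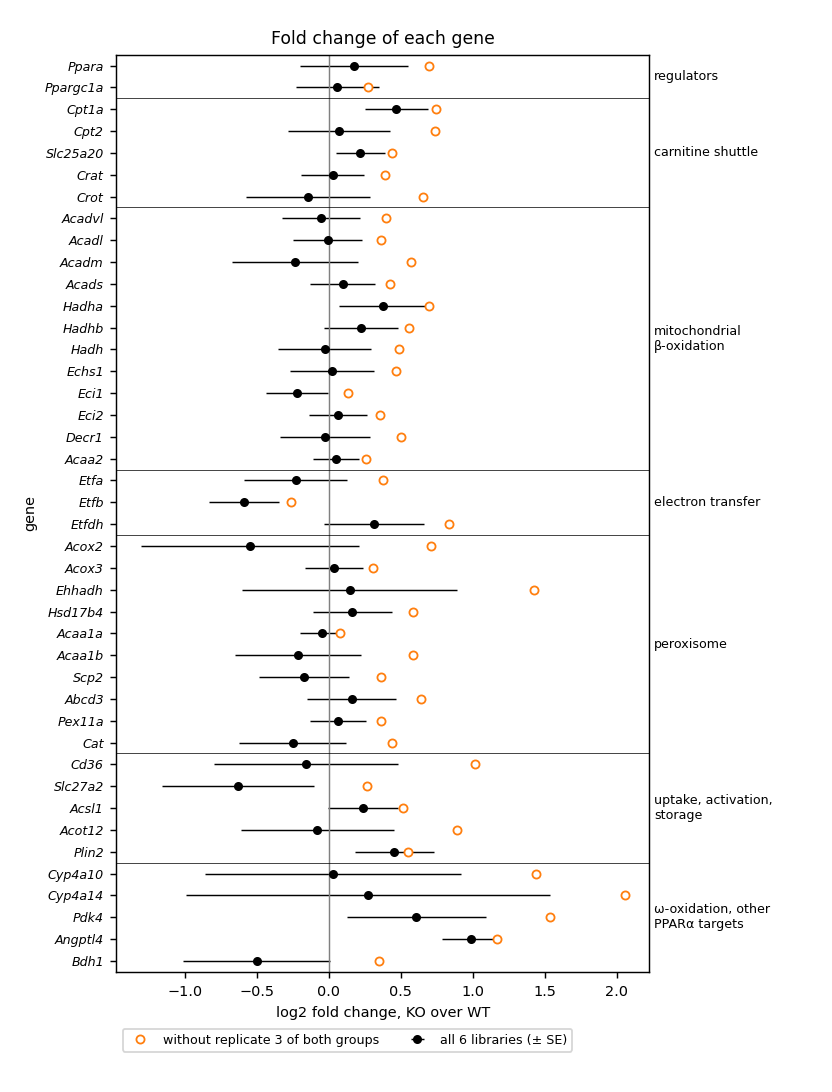
Black points give the log2 fold change (KO over WT, edgeR) of each tested gene with its SE from all 6 libraries, and orange circles give it without replicate 3 of both groups. Angptl4 stands highest at 0.99 among the black points, and 41 of the 42 circles lie above 0. For most genes replicate 3 was the highest WT and the lowest KO library, so most circles lie higher by construction.

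Of the 5 tested genes of uptake, activation and storage, 0 passed. Slc27a2, an acyl-CoA synthetase and carrier for long and very long chains, was the strongest member per kilobase (439 CPM over all libraries). It had 1577, 1011 and 431 CPM in KO and 886, 1270 and 2511 CPM in WT, which overlapped (log2 fold change -0.63 ± 0.53, SE; edgeR adjusted p = 0.715). Cd36, the fatty acid translocase, had 170, 128 and 61.1 CPM in KO and 39.6, 108 and 253 CPM in WT. WT replicates 1 and 3 enclosed all other libraries, and the log2 fold change was -0.16 ± 0.64 (SE). The synthetase Acsl1 and the thioesterase Acot12 differed by 0.24 and -0.08.

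Plin2, the coat protein of lipid droplets, did not follow the order of the other members. It had 176, 160 and 253 CPM in KO and 108, 122 and 200 CPM in WT. The highest library was KO replicate 3, where most members were low, and WT replicate 3 lay above 2 KO libraries. It averaged 197 ± 49.9 CPM in KO and 143 ± 49.7 CPM in WT (SD, n = 3 each), a log2 fold change of 0.46 ± 0.28 (SE; edgeR unadjusted p = 0.138, adjusted p = 0.650), which was above 0 in every alternative run.

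Fabp1, the fatty acid-binding protein of liver, was the member that could not be tested. It had 10, 5 and 2 counts in KO and 0, 2 and 14 counts in WT. The 0 counts of WT replicate 1 allow up to 0.0774 CPM (3 counts of its total; counting error only). Its promoter is shown because it was the 1 member promoter, of 36 with an entry in the RefSeq table (GRCm38.p6, 250 bases before to 50 after the gene start), that held the direct repeat AGGNCANAGGNCA, a relaxed form of the element bound by PPARα with RXR. The match is in capitals, lies on the opposite strand and begins 67 bases before the gene start.
Fabp1 (chr6:71199806-71199830, plus strand): aatcacTGACCTATGGCCTatatct
Of all 27025 genes with a promoter entry, 0.451% held this repeat on either strand, and 0.0481% held the strict form AGGTCANAGGTCA, which 0 members held. The half-site AGGTCA, the repeated unit of the strict form, was in 11 of 36 member promoters and in 18.1% of all.

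The ω-oxidation enzymes Cyp4a10 and Cyp4a14, which are among the most PPARα-responsive genes in mouse, showed the widest spread of all. Cyp4a14 had 74.9, 95.3 and 1.11 CPM in KO and 10.6, 30.4 and 101 CPM in WT. Cyp4a10 had 125, 87.1 and 8.74 CPM in KO and 28.4, 49.8 and 138 CPM in WT. KO replicate 3 was the lowest library for both genes by a wide margin, and the log2 fold changes were 0.27 ± 1.26 and 0.03 ± 0.89 (SE). Without replicate 3 of both groups they stood at 2.06 and 1.44. Near-identical copies lie in the same cluster on chromosome 4, so these counts may be shared with them.

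Angptl4 was the member that differed most between the genotypes. It encodes a secreted inhibitor of lipoprotein lipase induced by PPARs, by fasting and by hypoxia, and lies on chromosome 17 at 33774900 to 33781575 (GRCm38.p6). It had 190, 130 and 145 CPM in KO and 80.3, 62.6 and 92.3 CPM in WT. All 3 KO libraries lay above all 3 WT libraries, the only such case among the 42. The means were 155 ± 31.1 CPM in KO and 78.4 ± 14.9 CPM in WT (SD, n = 3 each). This is a log2 fold change of 0.99 ± 0.20 (SE), at an edgeR unadjusted p of 0.00129 and an adjusted p of 0.627 over all genes, so it did not pass. The DESeq2 Wald test called it (adjusted p = 0.0140), along with 0.328% of all genes. Over the 17 alternatives its log2 fold change ran from 0.82 to 1.17 and its adjusted p from 0.0140 to 0.971.

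Angptl4 is also made by adipocytes, and adipocyte RNA differed between libraries. The defining markers Adipoq, Plin1, Cidec, Lep, Retn and Cfd summed to 181, 0.923 and 4.21 CPM in KO and 2.54, 43.1 and 1.60 CPM in WT. The whole list of 8 white adipocyte markers, which adds Fabp4 and Lpl, summed to 229 to 614 CPM in KO and 279 to 507 CPM in WT. These adipocyte sums overlapped between the genotypes, whereas the summed markers of immune cells and of muscle did not. The 7 macrophage markers summed to 1553, 1794 and 1860 CPM in KO and 1243, 1339 and 1335 CPM in WT, with 7 of 7 fold changes above 0. The 8 lymphocyte markers summed to 69.4 to 149 CPM in KO and 30.6 to 42.0 CPM in WT. Most of the KO sum was Jchain, at 88.2, 108 and 53.4 CPM in KO and 5.29, 6.72 and 3.55 CPM in WT. Every other lymphocyte marker overlapped between the groups, and Cd3d (log2 fold change -0.59) and Cd8a (-0.35) were below 0. The 5 skeletal muscle markers were lower in KO, at 0.457 to 0.644 CPM, against 4.79 to 5.20 CPM in WT. The part of adipocytes, immune cells or muscle in the Angptl4 difference was not tested.

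Pdk4, the kinase that turns off pyruvate oxidation and spares glucose, had 89.0, 88.4 and 70.3 CPM in KO and 23.1, 38.0 and 101 CPM in WT. Only WT replicate 3 lay above the KO libraries. The log2 fold change was 0.61 ± 0.48 (SE; edgeR unadjusted p = 0.244, adjusted p = 0.704). With 1 library left out it ran from 0.25 to 1.44, the highest value being that without WT replicate 3. Bdh1, the enzyme that interconverts the 2 main ketone bodies, differed by -0.50 ± 0.51 (SE).

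**Figure D4:**
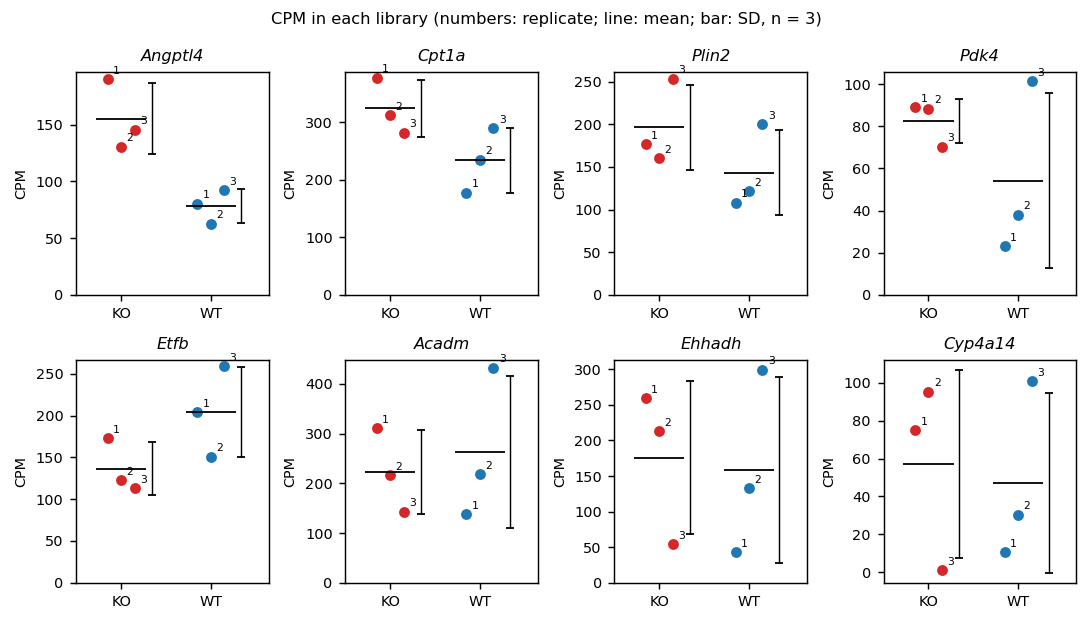
Points give CPM in each library for 8 genes, with KO left and WT right, numbers giving the replicate, lines the mean and bars the SD (n = 3). The groups are separate for Angptl4 and overlap for the other 7, with Cyp4a14 at 1.11 CPM in KO 3.

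The direction of the whole group depended on which libraries were compared. WT replicate 3 was the highest WT library for 41 members, and KO replicate 3 the lowest KO library for 37. Leaving both out therefore raises most members by construction, so the counts without them are no test of the genotype. With replicate 3 of both groups left out, a choice made with earlier results of these data known, 41 of 42 members were above 0 and 1 (Etfb) was below, where 50.4% of all tested genes were below 0. The members' median was then 0.51, beside a median of -0.004 over all genes. At an unadjusted p under 0.05, 15 members were higher and 0 lower, against 3.94% and 4.38% of all genes, and 0 passed the adjusted threshold (the smallest adjusted p was 0.525). The 15 were Cpt1a, Cpt2, Slc25a20 and Crot of the carnitine shuttle, Etfdh, the peroxisomal genes Ehhadh, Hsd17b4, Acaa1b and Abcd3, and Acot12, Plin2, Cyp4a10, Cyp4a14, Pdk4 and Angptl4. In the 4 libraries left, the 14 proximal tubule markers without Kap also summed higher in KO (3423 and 2246 CPM) than in WT (1972 and 2037 CPM). Their part in this pattern was not tested. Leaving out WT replicate 3 alone gave a members' median of 0.36, with 4 members below 0 (49.3% of all genes). Without WT replicate 1 it was -0.18, with 33 below 0 (51.3% of all genes). Without KO replicate 1 it was -0.14, with 29 below 0 (52.9% of all genes). Without KO replicate 3 it was 0.16, with 9 below 0 (52.8% of all genes).

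Other genes of the pathway were taken from fixed lists. Of 124 further genes in 5 lists, 119 were tested, 0 passed, and 6 were higher and 4 lower at an unadjusted p under 0.05 (4.38% and 3.52% of all tested genes), shares close to those over all genes. Their median log2 fold change was -0.05. WT replicate 3 was the highest library for 73 of the 119. Genes with small p in each list are named next, and 0 of them passed (edgeR adjusted p = 0.627 to 0.661). Groups did not overlap for 16.1% of all tested genes, beside which the cases without overlap below are to be read.

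Among 30 further mitochondrial genes, 11 were above 0. Acot13, a thioesterase, had 52.3, 35.2 and 34.7 CPM in KO and 66.5, 50.6 and 97.4 CPM in WT, a log2 fold change of -0.81 ± 0.27 (SE). Mcee, methylmalonyl-CoA epimerase, which works in the breakdown of odd chains, differed by -0.59 ± 0.20 (SE) without overlap. The transcripts of Acot13 (721 nt) and Mcee (828 nt) are short, and the 1164 tested genes under 1000 nt had a median of -0.29. The part of length in these differences was not tested. Of 34 further peroxisomal proteins, 10 were above 0. Abcd2, a fatty acyl-CoA transporter of the peroxisomal membrane, differed by 0.72 ± 0.43 (SE) at low levels. It had 5.98, 2.17 and 2.44 CPM in KO and 2.02, 2.63 and 1.77 CPM in WT, so only KO replicate 1 lay above the WT libraries. The 15 peroxins, which build the organelle, had a median of -0.03, with Pex10 at -0.38 ± 0.19 and Pex26 at 0.19 ± 0.12 (SE).

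Of 19 further PPARα targets, 13 were above 0, with a median of 0.18. G0s2, an inhibitor of triglyceride lipase, differed by -0.52 ± 0.21 (SE). Of 21 partners and coregulators, 12 were above 0. The corepressors Ncor1 and Nrip1 were at 0.54 ± 0.20 and 0.42 ± 0.18 (SE), both without overlap, with Ncor1 at 171, 190 and 147 CPM in KO and 86.9, 135 and 127 CPM in WT. G0s2 has a short transcript (871 nt), and tested genes under 1000 nt had a median log2 fold change of -0.29. Ncor1 (9037 nt) and Nrip1 (7868 nt) are long, and tested genes of 4000 nt or more had a median of 0.11. The part of length in these differences was not tested.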

How the data were processed

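The authors deposited whole-number read counts for each gene symbol and library, not normalized. Per the labels' protocols, RNA was purified with a column kit and converted with an mRNA library kit. The submitters' processing notes name GRCm38 and mm10, the same build. For the aligner, the counting tool and the strand setting, nothing is given in the sources used here, and genes that overlap or are near-identical may therefore share reads. Libraries held 38738204 to 51932509 counts.

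Titles gave the groups and replicate numbers. After filterByExpr (18927 genes kept) and TMM scaling, KO and WT were compared with edgeR 4.0.16 (glmQLFit with robust = TRUE, glmQLFTest, group as the only term; R 4.3.3), with Benjamini-Hochberg adjustment over all genes tested and a threshold of 0.05. SE is the log2 fold change over the root of F. DESeq2 1.42.0 and limma 3.58.1 (voom) were alternatives. The fit was tested on simulated counts. Length is that of a symbol's longest transcript in GENCODE M21 (89.7% of tested genes), and its 3′ UTR is what follows the stop codon.

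The members, lists and alternatives were chosen with earlier results of these data known. Values by library are given for 14 members named in the rule, for those at an unadjusted p under 0.05, and in each role for the member with the smallest p and that with the highest CPM per kilobase. From each other list the 2 genes with the smallest p were taken, and some of these are not reported here.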

Additional observations from a re-analysis of the deposited data

How the results depend on the processing

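Angptl4, Cpt1a, Slc25a20, Hadha, Etfdh, Acsl1, Plin2 and Pdk4 stayed above 0 and Etfb below 0 in all 17 alternatives. The other 33 tested members changed sign in at least 1, and the cause was not tested. Over all genes, where the main test called 0 genes (1495 at an unadjusted p under 0.05), DESeq2 called 34 higher and 28 lower, limma-voom 1 and 2, no filter 1 and 1, and the replicate block 1 higher, as did leaving out replicate 3 of both groups. Leaving out 1 library called 0 to 1 higher. DESeq2 called 1 member higher (Angptl4).

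At an unadjusted p under 0.05, 2 members were higher with upper-quartile factors, with library size alone, with DESeq2 and with the replicate block, 5 with limma-voom and 15 without replicate 3 of both groups. None (0) was lower with limma-voom, the block, the length trend removed or without replicate 3 of both groups. Leaving out 1 library gave 1 to 5 higher and 0 to 1 lower. Members below 0 numbered 10 with limma-voom, 1 without replicate 3 of both groups, and 4 to 33 with 1 library left out. The median was 0.51 without replicate 3 of both groups, and -0.18 to 0.36 with 1 library left out.

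Members that changed sign stood at these log2 fold changes. With limma-voom, Ppargc1a was at -0.056, Crot 0.11, Acadvl 0.063, Acadl 0.13, Hadh 0.077, Decr1 0.12, Acaa1b 0.18, Cat 0.0073, Cd36 0.21 and Acot12 0.20. With the replicate block, Ppargc1a was at -0.021, Acadl 0.038, Hadh 0.063, Decr1 0.058, Cd36 0.12 and Acot12 0.056. With the length trend removed, Ppargc1a was at -0.076, Crat -0.047, Acadvl 0.0088, Acadl 0.080, Echs1 -0.046 and Acox3 -0.027, and with no filter Acadl was at 0.00069. Without replicate 3 of both groups, Crot was at 0.65, Acadvl 0.40, Acadl 0.36, Acadm 0.57, Hadh 0.49, Eci1 0.14, Decr1 0.50, Etfa 0.38, Acox2 0.71, Acaa1a 0.075, Acaa1b 0.58, Scp2 0.36, Cat 0.44, Cd36 1.02, Slc27a2 0.27, Acot12 0.89 and Bdh1 0.35.

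With 1 library left out, Ppara ran from -0.13 to 0.44, Ppargc1a -0.28 to 0.32, Cpt2 -0.20 to 0.51, Crat -0.12 to 0.26, Crot -0.46 to 0.42, Acadvl -0.25 to 0.24, Acadl -0.18 to 0.29, Acadm -0.55 to 0.33, Acads -0.078 to 0.37 and Hadhb -0.025 to 0.48. Hadh ran from -0.29 to 0.40, Echs1 -0.23 to 0.36, Eci2 -0.082 to 0.28, Decr1 -0.29 to 0.37, Acaa2 -0.057 to 0.21, Etfa -0.52 to 0.24, Acox2 -1.26 to 0.26, Acox3 -0.15 to 0.18, Ehhadh -0.30 to 1.00 and Hsd17b4 -0.076 to 0.47. Acaa1a ran from -0.12 to 0.081, Acaa1b -0.59 to 0.26, Scp2 -0.41 to 0.20, Abcd3 -0.10 to 0.49, Pex11a -0.10 to 0.23, Cat -0.50 to 0.24, Cd36 -0.59 to 0.70, Acot12 -0.44 to 0.58, Cyp4a10 -0.59 to 0.91 and Cyp4a14 -0.31 to 1.48.

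The labels do not say whether shared replicate numbers pair the samples. Same-numbered libraries correlated in their deviations from the group means at -0.282, 0.179 and -0.288, and only replicates 2 correlated best with their own number. With 3 libraries per group, these values cannot decide whether samples were paired. The smallest count of a tested member in a library was 56.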
